A study of Mus musculus with 2 samples.

Results

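The genes of the mitochondrial respiratory chain are encoded by 2 genomes, and both groups were followed here in colitis-associated colon tumors (CACs). Members were chosen by gene name alone, as the subunits of complexes I to V, pseudogenes left out. The rule uses no measured value, though it was set with earlier results of these data known. The rule found 97 of the 32291 genes of the table. Of these, 12 are encoded by the mitochondrial genome (the mt- genes) and 85 by the nucleus, namely 35 of complex I, 4 of complex II, 9 of complex III, 20 of complex IV and 17 of complex V. *Ndufa4* and *Ndufa4l2* were placed in complex IV, to which *Ndufa4* belongs despite its name. The mitochondrial gene of complex III, *mt-Cytb*, is not caught by the rule because of its spelling, and its values are given apart.

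The respiratory chain sits in the inner mitochondrial membrane. Complex I (NADH dehydrogenase) and complex II (succinate dehydrogenase) pass electrons to ubiquinone, complex III (cytochrome bc1) passes them on to cytochrome c, and complex IV (cytochrome c oxidase) passes them to oxygen. The proton gradient built up on the way drives complex V, the ATP synthase. The mitochondrial genome is transcribed into long precursors that are cut into single mRNAs, whereas the nuclear subunits are transcribed one by one, translated in the cytosol and imported. In single-cell data a high mt- share of a cell is also widely read as a sign of damage or leakage of cytosolic RNA.

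The data were 2 single-cell libraries, 1 per genotype, each from 6 to 8 CACs of 3 mice pooled. The annotation used here does not give the mouse of a cell. Tumors had been induced with azoxymethane (AOM, 10 mg/kg) and 3 rounds of dextran sodium sulfate (DSS; 2.5%, then 2% in the last) in mice aged 6 to 10 weeks at the start, which were killed on day 110. Both genotypes carry floxed *Mir34a* alleles, and 1 library is labelled Mir34a_F/F. The other is labelled Mir34a_Mye_KO, for deletion by LysM-Cre, which is active in macrophages and neutrophils and not in the epithelium, so that in cells other than myeloid ones no deletion of *Mir34a* is intended. Each mRNA molecule was tagged by a unique molecular identifier (UMI) and counted once.

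The library labelled Mir34a_F/F held 20312 cells and 147109016 UMIs, and the one labelled Mir34a_Mye_KO 18571 cells and 193133086 UMIs, with a median per cell of 4787 and 7716 UMIs. The primary transcript of *Mir34a* was not lower in macrophages of the library labelled Mir34a_Mye_KO (462 UMIs, against 133 in the library labelled Mir34a_F/F; 0.139 and 0.0683 per 10000 UMIs). The row named crenlslyz2, by its name a Cre sequence at *Lyz2*, had 451 UMIs in macrophages of the library labelled Mir34a_F/F and 172 in the other (0.232 and 0.0518 per 10000), and *Lyz2* itself, the gene whose promoter drives LysM-Cre, 3892 and 1379 (1.999 and 0.415). Of these 3 rows the first 2, if read by their names, go against the labels. The crenlslyz2 row was lower together with *Lyz2*, however, and had UMIs in the library labelled Mir34a_F/F, where no Cre is intended. It may thus not count Cre alone. Whether the first row covers the deleted part of *Mir34a* was not tested. The third, *Lyz2*, could go with them, since by the name of the strain Cre sits in that locus, which was not tested. Whether the crenlslyz2 row shares reads with *Lyz2* was not tested either. The labels are therefore used here only as names. Whether they are exchanged was not tested, and an exchange would turn the sign of every ratio between the libraries. The 11 cell types of the deposited annotation were taken as given. It holds no subtypes, so a difference within a cell type and another mix of its subtypes cannot be told apart. In both libraries every fixed marker of an annotated cell type was highest in that type, other than 1 of the 5 markers of basophils (*Gata2*). The 5 epithelial markers together had 69.6 and 49.7 UMIs per 10000 in epithelial cells. They were also found in all other types, at 16.9 to 44.2 and 10.2 to 36.5, with erythroid cells the highest of these. Whether RNA carried over from epithelial cells adds to the mt- levels of the other types was not tested. The libraries shared 96 cell barcodes, 0.52% of the cells of the library labelled Mir34a_Mye_KO. The study states a limit of 25% mitochondrial RNA per cell, but the table holds 2470 and 4130 cells at or above 25%, so results are also given without them where it matters.

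A level is the mean over the cells of a type of UMIs per 10000 UMIs of the cell, and ratios are the library labelled Mir34a_Mye_KO over the one labelled Mir34a_F/F on the log2 scale. Brackets give 95% intervals, which hold the error of counting alone and leave out how mice differ and how the cells of a type differ. Each genotype is a single library, so genotypes could not be compared by a test, and genotype, mice and library preparation cannot be told apart. A UMI marks the 3′ end of a molecule, so levels of different genes were not divided by gene length.

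The mt- mRNAs that set the libraries apart are shown first by their position and 3′ end, since the method counts mRNAs by their poly(A) ends. Positions are on chromosome M of GRCm38, and in each line the last 24 bases of the annotated gene stand in lower case with its stop codon in capitals. The first 3 genes took a larger share of all mt- UMIs in the library labelled Mir34a_Mye_KO, and the last 3 a smaller one.
mt-Nd2 (chrM:3914-4951, + strand): ctagccccccaactaattaccTAG
mt-Atp6 (chrM:7927-8607, + strand): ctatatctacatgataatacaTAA
mt-Nd3 (chrM:9459-9806, + strand): aaaggattagaatgaacagagTAA
mt-Co1 (chrM:5328-6872, + strand): ccaacctatgtaaaagtaaaaTAA
mt-Nd4l (chrM:9877-10173, + strand): aatctcaacctactacaatgcTAA
mt-Nd6 (chrM:13552-14070, - strand): attatcgagattactcgagatTAA

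All 6 annotated genes end in a complete stop codon, and both groups hold TAA endings, so the stop codon did not separate them. The poly(A) ends of the mRNAs were not examined. *mt-Nd6* is the single protein gene of the other strand. Some of these genes overlap their neighbours in the annotation. *mt-Atp8* and *mt-Atp6* share 43 bases (chrM:7927-7969, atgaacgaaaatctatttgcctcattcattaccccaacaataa), *mt-Nd4l* and *mt-Nd4* share 7 bases (atgctaa), and *mt-Nd5* and *mt-Nd6* share 14 bases on opposite strands. *mt-Atp8* with *mt-Atp6* and *mt-Nd4l* with *mt-Nd4* are each carried by 1 mRNA, so the split of reads within these pairs is uncertain. Whether reads were counted by strand is not given in the sources used here.

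Epithelial cells, which include the tumor cells, had the highest mt- level of all 11 cell types in both libraries. The 12 mt- members together reached 1401 UMIs per 10000 in the library labelled Mir34a_F/F and 2092 in the one labelled Mir34a_Mye_KO. Fibroblasts were next in the first (631, 617 to 647) and erythroid cells in the second (1002, 983 to 1022). Epithelial cells thus stood at 2.22 and 2.09 times the next type. The rank of erythroid cells in the second rests on 30 cells, 5 of them at 25% mt- share or more. By the median mt- share of a cell they (5.86%) were slightly below endothelial cells (5.9%) there, and epithelial cells (18.4%) were still highest. By level, B cells were lowest in both libraries, at 291 and 441. Fibroblasts had 944 in the second and erythroid cells 365 in the first. Between these ends, mast cells had 470 and 701, endothelial cells 408 and 831, neutrophils 364 and 561, macrophages 361 and 559, T cells 341 and 522, basophils 328 and 650, and dendritic cells 307 and 497. Neutrophils and macrophages did not differ beyond their counting intervals in either library, and erythroid cells and neutrophils did not in the library labelled Mir34a_F/F. In cells with at least 500 mRNAs and under 10% mt- share, epithelial cells were 1.22 times the next type in the library labelled Mir34a_F/F and 0.99 times (0.970 to 1.006) in the other, so their lead then ended in the second.

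**Figure D1:**
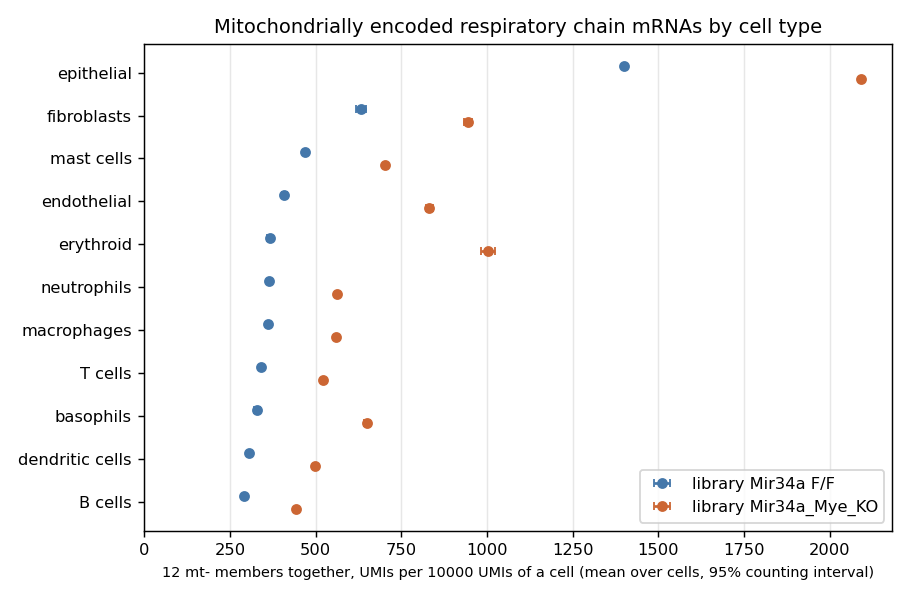
Level of the 12 mt- members together in each cell type (mean over cells of UMIs per 10000 UMIs, horizontal axis) in the 2 libraries, with 95% counting intervals. Epithelial cells lie at 1401 and 2092, and in each of the 11 cell types the point of the library labelled Mir34a_Mye_KO lies to the right.

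The mt- level was higher in the library labelled Mir34a_Mye_KO in 11 of 11 cell types. The log2 ratio was 0.58 (0.576 to 0.579) in epithelial cells, 0.63 in macrophages and in neutrophils, 0.61 in T cells, 0.60 in B cells and 0.70 in dendritic cells. It was largest in 3 types with few cells, erythroid cells (1.46; 106 and 30 cells), endothelial cells (1.03; 116 and 107) and basophils (0.99; 48 and 40). The ratio was above 0 in cell types without intended deletion of *Mir34a* as well. Whether these types differed from macrophages and neutrophils was not tested. In epithelial cells the size depended on the cells with a high share. These numbered 2328 of 11614 and 3825 of 9865 at 25% or more, and without them the ratio was 0.12 (0.121 to 0.125), while with UMIs summed over cells it was 1.10. In macrophages and neutrophils the ratio without such cells was 0.51 and 0.48. The 6 RNAs fixed as a readout of RNA quality are nuclear and rRNA-like RNAs such as *Malat1* and *Gm42418*. Their sum was also higher in 11 of 11 cell types (0.10 to 0.87). By gene, 2 of the 6 were lower in epithelial cells, macrophages, neutrophils and T cells alike. Immunoglobulin mRNAs were higher as a sum in 11 of 11 cell types as well (0.18 to 1.66). The part of both groups of RNAs in the result was not tested.

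By gene, the mt- members of complex I ranged widely in epithelial cells. *mt-Nd2* had a level of 41.6 and 83.1 UMIs per 10000 in the libraries labelled Mir34a_F/F and Mir34a_Mye_KO, a log2 ratio of 0.997 (0.988 to 1.005). *mt-Nd3* had 14.1 and 25.8 (0.87), and *mt-Nd4* 99.9 and 155.6 (0.64). *mt-Nd1* (74.4 and 107.8; 0.54) and *mt-Nd5* (26.1 and 38.0; 0.54) stood in the middle of the group. *mt-Nd4l* had 19.5 and 21.5 (0.14), and *mt-Nd6* 3.98 and 3.58 (-0.15, -0.183 to -0.117), the single mt- member that was not higher over all cells. Without cells of 25% or more, 4 of the 12 mt- members were lower in epithelial cells, namely *mt-Nd6* (2.36 and 1.80; -0.39, -0.439 to -0.331), *mt-Nd4l* (11.6 and 9.21, -0.34), *mt-Co1* (232.9 and 211.5, -0.14) and, by less than 0.01 on the log2 scale, *mt-Co3* (182.6 and 181.9). *mt-Nd2* was still higher (24.7 and 37.3; 0.60, 0.583 to 0.608). The 7 subunits all belong to the membrane arm of complex I, so the difference among them does not follow the complex.

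Of the mt- genes, 3 encode the catalytic core of complex IV. *mt-Co1*, which carries the oxygen-binding site, had 383.6 and 481.5 UMIs per 10000 in epithelial cells (0.33). *mt-Co2*, which takes up the electrons from cytochrome c, had 187.5 and 309.1 (0.72). *mt-Co3* had 308.3 and 416.7 (0.44). Of complex V, *mt-Atp6*, the part of the proton channel, had 232.3 and 435.2 (0.91) and *mt-Atp8* 9.89 and 13.8 (0.48). *mt-Cytb*, outside the name rule, had 146.2 and 210.4 (0.53, 0.520 to 0.530), near the middle of the mt- members.

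The median of the 12 mt- members lay at 0.54 in epithelial cells, 0.67 in macrophages, 0.60 in neutrophils and 0.58 in T cells, where the median of all genes lay at -0.22, -0.06, -0.15 and -0.09. At least 1.5-fold higher were 5 of 12 mt- members in epithelial cells (background: 1.51% of 9322 genes), 7 in macrophages (1.83% of 8875 genes), 7 in neutrophils (5.55% of 8096 genes) and 6 in T cells (1.62% of 9231 genes). No mt- member was lower by that fold. Without cells of 25% or more the median in epithelial cells was 0.09, against -0.09 for all genes. Then 1 passed the fold in epithelial cells (background: 2.875% of genes), 5 in macrophages (1.93%) and 4 in neutrophils (6.10%).

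For 9 of the 13 mt- genes the share of the mt- pool differed between the libraries in the same direction in 11 of 11 cell types. This measure is the percent of a gene among the UMIs of all 13 mt- genes, summed over cells. Cells with many mt- UMIs thus weigh most. A larger share of some genes must come with a smaller share of others. The count has no background over all genes on this measure. By level, which is another measure, 6.36% of 7440 genes were lower in all 11 cell types. The share of genes higher in all 11 was not counted, so this is no background for the 9 genes. *mt-Nd2* took 2.55% (2.54 to 2.56) of the mt- UMIs of epithelial cells in the library labelled Mir34a_F/F and 3.58% (3.57 to 3.58) in the one labelled Mir34a_Mye_KO. In macrophages it took 2.58% (2.54 to 2.61) and 3.77% (3.741 to 3.797), and in neutrophils 2.62% (2.56 to 2.68) and 3.57% (3.52 to 3.61). Over the 11 cell types its share ran from 2.31% to 2.96% in the first library and from 3.57% to 4.44% in the second, without overlap. The log2 ratio of shares was 0.45 to 0.94.

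*mt-Atp6* likewise took 13.96% to 15.42% over the cell types of the library labelled Mir34a_F/F and 17.65% to 18.94% over those of the other. *mt-Nd3* took 0.872% to 1.02% and 1.09% to 1.33%. The ranges of these 3 genes did not overlap between libraries, and the library labelled Mir34a_Mye_KO was the higher one. *mt-Co2* (0.07 to 0.20) and *mt-Nd4* (0.02 to 0.19) also had log2 ratios of shares above 0 in 11 of 11 cell types, with ranges of shares that overlapped.

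The opposite held for *mt-Co1*, with 22.6% to 25.4% in the library labelled Mir34a_F/F and 18.5% to 21.4% in the one labelled Mir34a_Mye_KO. *mt-Nd6* took 0.224% to 0.333% and 0.134% to 0.192%. For both genes the higher library was that labelled Mir34a_F/F, again without overlap over 11 cell types. *mt-Nd4l* (-0.60 to -0.22) and *mt-Co3* (-0.26 to -0.08) were below 0 in every cell type with overlapping ranges of shares, and *mt-Nd1*, *mt-Nd5*, *mt-Atp8* and *mt-Cytb* went either way. The cell types of a library share its preparation and sequencing, so 11 cell types are not 11 replicates of the difference. In cells under 25% mt- share the direction of each of the 9 genes held in 11 of 11 cell types. In cells under 10% it held in 11 of 11 for 8 of them, and for *mt-Nd6* in 10 of 11. In epithelial cells it also held between the same bins of mt- share, with 1 exception. *mt-Nd2* ran from 2.50% to 2.64% and from 3.56% to 4.01% over the 4 bins, *mt-Co1* from 24.7% to 25.7% and from 20.5% to 21.7%, and *mt-Nd6* stood at 0.225% and 0.246% under 5% mt- share, where it was not lower.

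**Figure D2:**
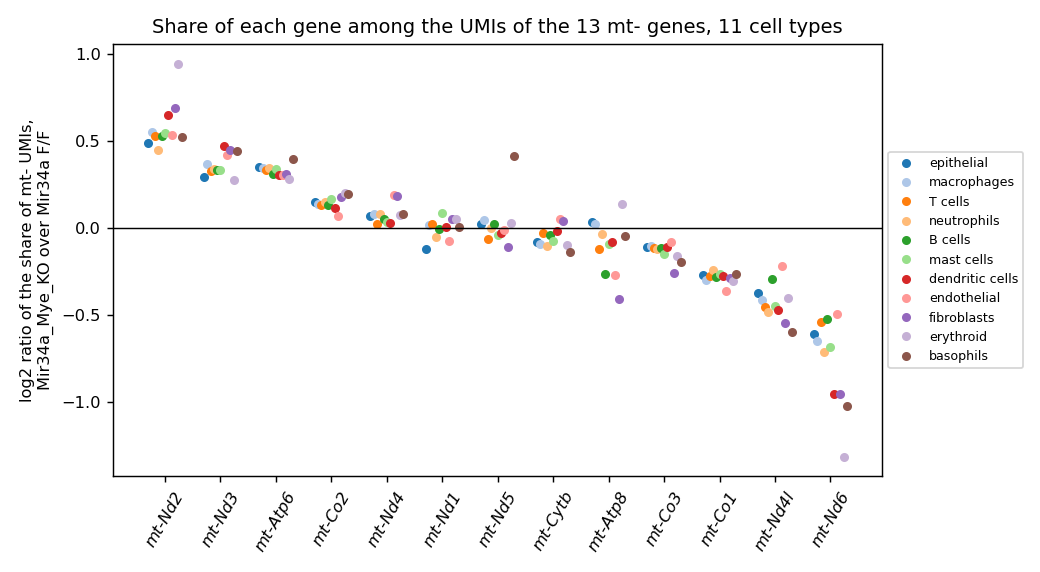
Log2 ratio between the libraries (Mir34a_Mye_KO over Mir34a F/F, vertical axis) of the share of each of the 13 mt- genes among all mt- UMIs, with 1 point per cell type. The points of *mt-Nd2*, *mt-Nd3*, *mt-Atp6*, *mt-Co2* and *mt-Nd4* all lie above 0 and those of *mt-Co3*, *mt-Co1*, *mt-Nd4l* and *mt-Nd6* all below.

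The nuclear members went the other way. Together they were lower in the library labelled Mir34a_Mye_KO in 11 of 11 cell types, with log2 ratios of -0.46 to -0.19. Epithelial cells had 179.1 and 132.1 UMIs per 10000 (-0.44, -0.445 to -0.434), macrophages 178.5 and 144.7 (-0.30), neutrophils 106.6 and 77.3 (-0.46), and T cells 167.6 and 123.1 (-0.45). Part of this comes with the measure, since more mt- UMIs leave fewer of every 10000 for all other genes. Set against the UMIs outside the 13 mt- genes, the ratio was -0.31 (-0.314 to -0.303) in epithelial cells, -0.27 in macrophages, -0.43 in neutrophils and -0.42 in T cells, and it was below 0 in 11 of 11 types, with an interval across 0 in erythroid cells (-0.10, -0.216 to 0.018). In B cells the ratio shrank from -0.39 to -0.06 once 400 genes were left out of the total. These were the immunoglobulin and rRNA-like genes, with *Cdk8* and *Camk1d*. Immunoglobulin mRNAs in these cells had 1372 and 2753 UMIs per 10000.

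Both ends of the order of the cell types by nuclear level were shared by the libraries. Per 10000 UMIs outside the mt- genes, dendritic cells were highest (220.7 and 188.8), followed by epithelial cells (209.3 and 169.0) and macrophages (185.6 and 154.1). Neutrophils were lowest (111.7 and 83.0), after basophils (121.6 and 96.1). The counting intervals of these 5 types, which leave out the spread between cells, did not overlap with any neighbour. In the library labelled Mir34a_F/F those of T cells (174.0), fibroblasts (166.1), endothelial cells (164.7) and mast cells (163.5) overlapped in turn, as did those of erythroid cells (145.6) and B cells (139.1). In the other, erythroid cells (135.9), endothelial cells (135.9) and fibroblasts (135.8) overlapped. T cells, above endothelial cells in the first library beyond the counting intervals, were below them in the second (130.4, 129.8 to 130.9, against 131.5 to 140.5). The order by nuclear level was thus not that by mt- level, in which dendritic cells were next to last.

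**Figure D3:**
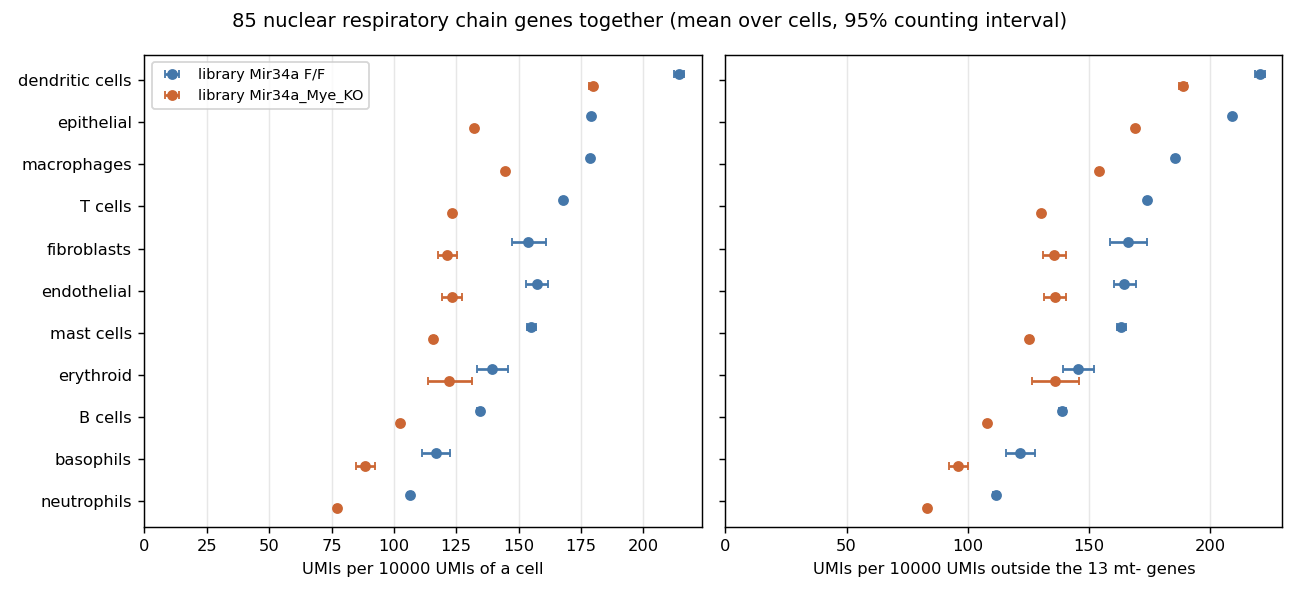
Level of the 85 nuclear members together in each cell type in the 2 libraries, per 10000 UMIs of a cell (left) and per 10000 UMIs outside the mt- genes (right), as means over cells with 95% counting intervals. In all 11 cell types and on both scales the library labelled Mir34a_Mye_KO lies to the left, and dendritic cells (220.7 and 188.8 on the right) lie at the top and neutrophils (111.7 and 83.0) at the bottom.

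The level of the mt- members divided by that of the nuclear members was 7.82 in epithelial cells of the library labelled Mir34a_F/F and 15.8 in those of the one labelled Mir34a_Mye_KO. In macrophages it was 2.02 and 3.86, in neutrophils 3.41 and 7.26, in T cells 2.04 and 4.24, and in dendritic cells, the lowest, 1.43 and 2.76. The log2 difference between libraries was 0.92 to 1.65 over the cell types. Within a complex the ratio was larger for complex IV (2.88 to 16.3 and 5.33 to 32.0 over the cell types) than for complex I (1.16 to 6.19 and 2.30 to 12.5) and complex V (0.722 to 4.42 and 1.72 to 10.99).

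Of the 78 nuclear members with a level of at least 0.1 in epithelial cells, 77 were lower in the library labelled Mir34a_Mye_KO (background: 87.75% of genes, which holds for the counts by complex in these cells as well). Their median was -0.41 against -0.22 for all genes, and 67 of 78 lay below that median. By at least 1.5-fold, 10 of 78 were lower in epithelial cells (background: 4.49% of genes), 1 of 77 in macrophages (3.81%), 16 of 78 in neutrophils (13.5%) and 15 of 78 in T cells (8.87%), and none was higher. The count in epithelial cells rests on the scale. It was 0 when the mt- genes are left out of the total (background: 2.02% of genes). Without cells of 25% or more it was 1 (1.72%), and with UMIs summed over cells 48 (14.4%). In macrophages it was 0, 0 and 14 on the same scales (background: 3.30%, 3.60% and 6.16% of genes). The members did not stand alone in this. In epithelial cells the median was -0.43 for 90 mRNAs of cytosolic ribosomal proteins and -0.36 for 77 of mitochondrial ribosomal proteins. Of the 79 nuclear members with a ratio in every cell type, 22 (27.9%) were lower in all 11, 61 (77.2%) in at least 9 and 5 (6.33%) in at most 5. Over all 7440 genes with such a ratio these shares were 6.36%, 31.9% and 28.8%.

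**Figure D4:**
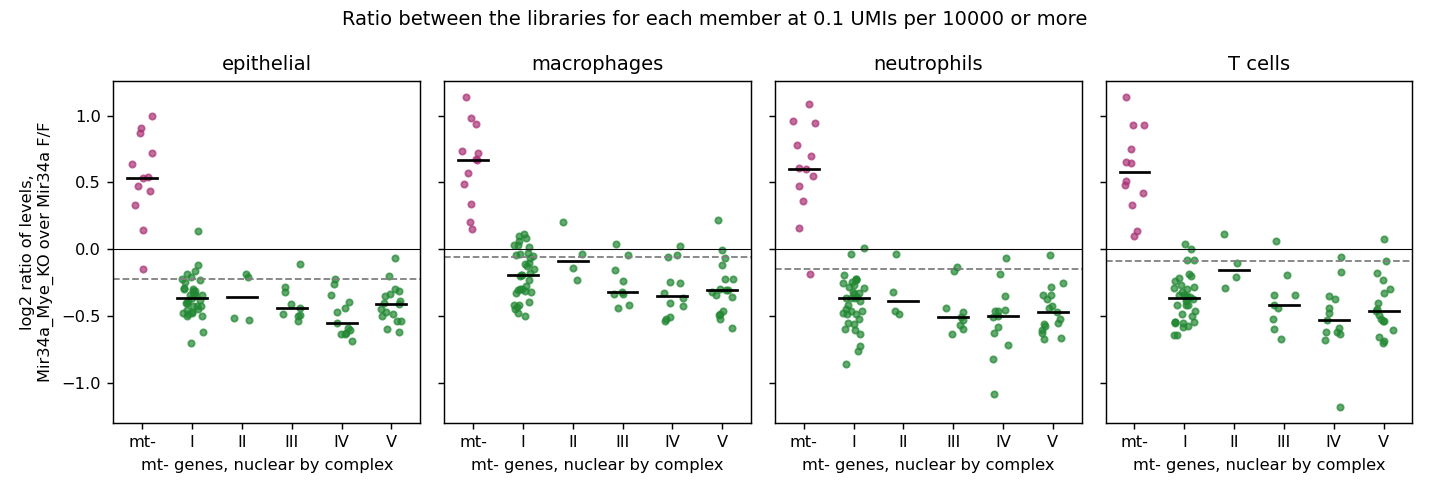
Log2 ratio between the libraries for each member with a level of at least 0.1 UMIs per 10000 in epithelial cells, macrophages, neutrophils and T cells, with the mt- members in purple and the nuclear ones in green by complex. Bars are medians, and the dashed line is the median of all genes (-0.22, -0.06, -0.15 and -0.09). Most nuclear members lie below it and nearly all mt- members above.

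Complex I takes electrons from NADH, and its nuclear members spanned levels of 0.306 (*Ndufs1*) to 2.86 (*Ndufa2*) UMIs per 10000 in epithelial cells of the library labelled Mir34a_F/F. In the library labelled Mir34a_Mye_KO *Ndufa13* was highest (2.71 and 2.38, -0.18). Their median ratio was -0.36, and 34 of 35 were lower. Of the nuclear members at a level of at least 0.5, *Ndufa7* was among the 3 with the lowest ratio in these cells, at 2.22 and 1.36 (-0.71, -0.756 to -0.658), while *Ndufb6* was among the 3 with the highest, at 0.603 and 0.555 (-0.12). The single one of the 35 not lower was *Ndufs1*, below that level and the largest subunit of the complex, with 0.306 and 0.336 (0.13, 0.015 to 0.254), which is named after its value was seen. In macrophages *Ndufa8* had 0.619 and 0.669 (0.11, -0.027 to 0.252). In neutrophils *Ndufa1* had 1.26 and 0.741 (-0.77) and *Ndufb2* 0.660 and 0.400 (-0.72), whereas *Ndufs4* had 0.560 and 0.565 (0.01, -0.250 to 0.272). Ratios thus spread from gene to gene by more than their counting intervals.

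Complex II is the single complex with no mt- gene and also an enzyme of the citrate cycle. Its mRNAs were scarce, with levels of 0.540 to 0.875 in epithelial cells of the library labelled Mir34a_F/F. *Sdhb*, the iron-sulfur subunit, was the highest, at 0.875 and 0.612 (-0.51). *Sdha*, the flavoprotein subunit, was lower in epithelial cells (-0.19) but higher in macrophages, at 0.647 and 0.744 (0.20, 0.062 to 0.343). None of the 4 passed 1.5-fold in epithelial cells, macrophages, neutrophils or T cells.

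In complex III all 9 nuclear members were lower in epithelial cells, with a median of -0.44. *Uqcrh*, the hinge protein, was the most abundant (4.39 and 3.11, -0.50). *Uqcrfs1*, the Rieske iron-sulfur protein, was among the members with the highest ratio (0.657 and 0.609, -0.11, -0.196 to -0.024). Cytochrome c itself (*Cycs*), outside the rule, had 2.08 and 1.45 (-0.52).

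Nuclear members of complex IV had the lowest median of the 5 complexes in epithelial cells, -0.55, with 13 of 13 below 0 (87.75% of all genes). By 1.5-fold 6 were lower (4.49% of all genes). None of them passed the fold with the mt- genes left out of the total (2.02% of all genes). *Cox6c* had 5.82 and 3.61 (-0.69, -0.721 to -0.658) and *Cox8a* 6.86 and 4.42 (-0.64). *Cox4i1*, the most abundant nuclear member in the library labelled Mir34a_Mye_KO, had 7.83 and 5.65 (-0.47). *Cox6c* was lower in 11 of 11 cell types, by 0.48 to 1.09 on the log2 scale, each time with an interval below 0. In macrophages *Cox7a2* had 3.79 and 2.61 (-0.54), and in neutrophils *Cox7b* had 1.73 and 0.977 (-0.82). *Cox7a2l*, which is known for joining complexes III and IV into supercomplexes, had 0.864 and 0.825 in neutrophils (-0.07, -0.277 to 0.142) and 1.84 and 1.87 in macrophages (0.02).

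Complex IV is also where tissue-specific copies of a subunit exist. The ubiquitous forms dominated throughout. In epithelial cells *Cox6a1* had 2.99 and 2.35 and *Cox7a2* 3.63 and 2.34 UMIs per 10000. The heart and muscle form *Cox7a1* had 0.275 and 0.178 there, and over all other types at most 0.132 in the library labelled Mir34a_F/F. In the other library its highest level was in erythroid cells, at 0.456 from 5 UMIs. *Cox6a2*, the muscle form of the subunit, stood out in dendritic cells, with 0.808 and 0.909 (177 and 578 UMIs), whereas its level in epithelial cells was 0.00187 and 0.00663 and in macrophages 0.00583 and 0.0104. It was the single nuclear member to reach 2 times the next cell type in both libraries with at least 20 UMIs in that type. Its ratio between libraries was 0.17 (-0.088 to 0.429). Other copies had few UMIs. *Cox4i2* had 204 and 135 UMIs in epithelial cells and 10 and 2 UMIs in fibroblasts. *Ndufa4l2* had 95 and 64 UMIs in epithelial cells and 9 and 10 in fibroblasts (0.248 and 0.156 per 10000), which was the highest level in the library labelled Mir34a_F/F. Pericyte and smooth muscle markers together had 11.5 and 8.13 in fibroblasts and at most 0.424 elsewhere, and their part in this was not tested. *Cox6b2* was highest in fibroblasts (0.402 and 0.521; 9 and 40 UMIs), *Cox7b2* and *Cox8b* had 35 and 25 UMIs over all cells of both libraries, and *Cox8c* had 0, which allows up to 3.

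*Ndufa4* differed in direction among the cell types. It had 3.28 and 2.42 in epithelial cells (-0.44) and 3.31 and 3.995 in B cells (0.27). *Cox4i1*, of the same complex, had 5.82 and 4.04 in B cells (-0.53).

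All 17 nuclear members of complex V were lower in epithelial cells, with a median of -0.41. *Atp5e*, a small subunit of the rotor stalk, was the highest (6.79 and 4.98, -0.45). The 3 genes for the same membrane ring protein, whose mature proteins are alike and whose reads could be shared, were close to each other, with *Atp5g1* at 2.43 and 1.67, *Atp5g2* at 2.83 and 2.00 and *Atp5g3* at 2.93 and 2.09 (-0.54, -0.50 and -0.49). In macrophages *Atp5md* (3.91 and 2.60, -0.59) and *Atp5k* (3.35 and 2.34, -0.52) were lowest. *Atp5f1*, the subunit b of the peripheral stalk, was, at this limit on level, among the members with the highest ratio in epithelial cells (1.42 and 1.36, -0.07), in macrophages (1.81 and 2.11; 0.22, 0.138 to 0.306) and in neutrophils (1.15 and 1.12, -0.04, -0.222 to 0.142). Subunits of the same enzyme thus lay on either side of 0 in macrophages.

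Genes around the chain were taken as fixed lists. In epithelial cells 29 of 30 assembly factors (median -0.28), 26 of 26 genes for expression of the mitochondrial genome (-0.27) and 17 of 17 of the citrate cycle and pyruvate dehydrogenase (-0.23) were below 0, with -0.22 as the median of all genes and 87.75% of all genes below 0. In macrophages these counts were 18 of 28, 16 of 19 and 11 of 17, where 58.9% of all genes were below 0. The copper chaperone *Cox17* had 2.43 and 1.71 (-0.51) in epithelial cells. *Taco1*, the translational activator of *mt-Co1*, was the exception among assembly factors, at 2.10 and 2.59 (0.30, 0.260 to 0.344). *Slirp*, which protects mt- mRNAs, had 0.637 and 0.436 (-0.55), *Ssbp1* 0.671 and 0.474 (-0.50) and *Cs*, citrate synthase, 1.07 and 0.816 (-0.40). Of the mitochondrial ribosome, *Mrpl33* had 1.64 and 1.20 (-0.46) and *Mrpl52* 2.00 and 1.43 (-0.49). Malate dehydrogenase, *Mdh2*, had 1.04 and 0.861 (-0.28), and *Atpif1*, the inhibitor of ATP synthase, 4.11 and 3.14 (-0.39). *Chchd2*, a protein of the space between the mitochondrial membranes, had 6.69 and 5.87 (-0.19). *Ppargc1a*, the coactivator of mitochondrial biogenesis, had 0.719 and 0.503 (-0.52) and the factor *Yy1* 0.871 and 0.821 (-0.09).

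The promoters of the nuclear members were searched for letters known from the factors of mitochondrial biogenesis. RefSeq promoters of 300 bases (250 before and 50 after the start, GRCm38.p6) were matched for 68 of the 85 nuclear members. The core of NRF1 (GCGCATGC, either strand) was in 10 of 68 (14.7%) and in 2.81% of all 27025 promoters. The ETS core bound by GABPA (CCGGAAG, either strand) was in 16 (23.5%, against 9.12%), and the YY1 core (AAGATGG, either strand) in 10 (14.7%, against 6.48%). The promoters of 74 cytosolic ribosomal protein genes held these in 4.05%, 32.4% and 12.2%, and those of 69 mitochondrial ribosomal protein genes in 11.6%, 36.2% and 18.8%. No motif holds the letters of another. These are matches of letters and not measured binding. Whether a motif goes with the ratio between the libraries was not tested. The promoter of *Sdhb*, which holds 2 of the 3 motifs, is shown over the 250 bases before the start (+ strand), and those of *Cox8a*, among the lowest ratios, and *Atp5f1*, among the highest, over the 30 bases around it (- strand), with the letters of a motif in capitals.
Sdhb (chr4:140961021-140961270): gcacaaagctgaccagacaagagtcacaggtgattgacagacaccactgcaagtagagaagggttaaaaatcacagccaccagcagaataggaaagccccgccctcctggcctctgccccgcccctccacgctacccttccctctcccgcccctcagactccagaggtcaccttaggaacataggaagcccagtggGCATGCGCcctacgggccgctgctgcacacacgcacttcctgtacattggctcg
Cox8a (chr19:7217602-7217631): ttccgaaataCTTCCGGctcgggcgtccgg
Atp5f1 (chr3:105959249-105959278): gatgtgcgagcggCCATCTTgctcctgccc

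*Sdhb* carries the NRF1 core 54 bases before the start, with an ETS core 6 bases after the start. In *Cox8a* an ETS core begins 5 bases before the start and spans it, and another lies 32 bases after it. In *Atp5f1*, the YY1 core spans the start.

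Within epithelial cells the median mt- share of a cell was 11.2% in the library labelled Mir34a_F/F and 18.4% in the one labelled Mir34a_Mye_KO. Cells were divided at 5%, 10% and 25%, which gave 3473, 1937, 3876 and 2328 cells in the first and 2001, 1549, 2490 and 3825 in the second. The mt- genes set these bins, so only nuclear members, per 10000 UMIs outside the mt- genes, were compared. They were highest in the cells with the lowest mt- share. Their level over the 4 bins was 249.9, 208.3, 182.9 and 193.4 in the library labelled Mir34a_F/F and 197.9, 172.8, 159.4 and 158.5 in the other. The log2 ratio of the top to the bottom bin was -0.37 (-0.383 to -0.357) and -0.32 (-0.332 to -0.308). Most of the step lay below 25%, and in the library labelled Mir34a_F/F the top bin was again above the one before it. With UMIs summed over cells the first ratio was -0.61. Within 1 percentage point of a limit lay 962 and 1348 cells at 5%, 693 and 333 at 10%, and 248 and 312 at 25%.

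The same order of bins held for each complex from the first bin to the third. Complex IV went from 78.5 under 5% to 52.5 at 10 to 25% and 56.2 at 25% or more in the library labelled Mir34a_F/F, and from 57.2 to 45.2 and 45.3 in the one labelled Mir34a_Mye_KO. Complex I went from 61.7 to 47.5 and 49.3, and from 51.2 to 42.7 and 42.0. In each bin the library labelled Mir34a_Mye_KO had the lower nuclear level.

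**Figure D5:**
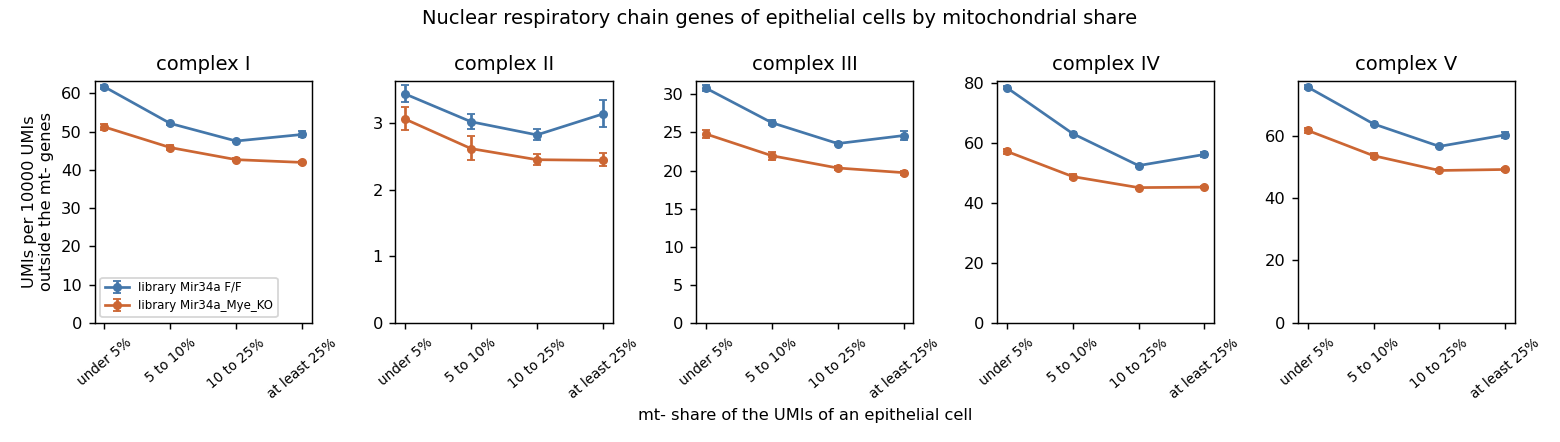
Summed level of the nuclear members of each complex in epithelial cells (UMIs per 10000 UMIs outside the mt- genes, vertical axis from 0) in 4 bins of mt- share, for the 2 libraries, with 95% counting intervals. All complexes are highest under 5% (complex IV, 78.5 and 57.2), and the library labelled Mir34a_Mye_KO is lower in every bin.

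Top against bottom bin, 72 of 78 nuclear members were lower in each library (background: 49.05% of genes in the library labelled Mir34a_F/F and 57.6% in the other), 15 of 78 by 1.5-fold in the library labelled Mir34a_F/F (background: 8.67% of genes) and 8 of 78 (10.3%) in the other, where the background was 10.1%. Their medians were -0.31 and -0.35, where those of all genes were 0.01 and -0.08. Cytosolic ribosomal proteins had lower medians still (-0.57 and -0.62). Of the 75 members at a level of at least 0.5, those that differed most were *Ndufc2*, from 2.55 to 1.36 (-0.91) and from 2.06 to 1.15 (-0.85), *Ndufa4*, from 5.92 to 3.11 (-0.93) and from 4.46 to 2.64 (-0.76), *Ndufb11* (-0.80 and -0.75) and *Ndufb4* (-0.81 and -0.62). At the other end were *Ndufv3* (0.16 and 0.24), *Ndufb7*, from 2.14 to 2.49 (0.22) and from 2.04 to 2.31 (0.18), *Ndufa13* (-0.01 and 0.23) and the ATP synthase subunit *Atp5d* (-0.01 and 0.16). Members of complex I thus stood at both ends.

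Other values moved with the bins. The median depth was 7377, 7818, 5852 and 2562 UMIs in the library labelled Mir34a_F/F and 2293, 3378, 11748 and 6713 in the other, so the depth of the top bin was below that of the bottom bin in the first library and above it in the second. Together the 6 RNA quality RNAs were at 704.5 and 1269 per 10000 in the bottom and top bin of the first library and at 1485 and 1944 in the second. Immunoglobulin mRNAs took on average 0.358% and 0.326% of the UMIs of a cell in the first and 1.46% and 0.698% in the second. Thinned to 1000 UMIs per cell, the ratios of top to bottom bin were -0.48 and -0.33. Thinning keeps the expected share of a gene in a cell and leaves out cells under 1000 UMIs. It therefore cannot show the part of depth. The part of depth and that of RNA quality were not tested.

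Across single cells the rank correlation of mt- share with nuclear level was weakly negative in epithelial cells (Spearman's rho -0.20 and -0.11 over 11614 and 9865 cells). It was most negative in dendritic cells (-0.29 and -0.31). In T cells, macrophages, mast cells and endothelial cells it was below 0 in both libraries too. In B cells, erythroid cells, fibroblasts and basophils it lay from -0.06 to 0.37. In neutrophils it was 0.37 in both libraries (1053 and 1077 cells). These are descriptions over cells that share a library and differ in depth, and rho of mt- share with depth was -0.26 and 0.22 in epithelial cells and 0.11 and 0.02 in neutrophils.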

How the data were processed

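Single cells of CACs were measured in 2 libraries with the 10x 3′ method. The authors aligned and counted reads with Cell Ranger 7.2.0 on mm10 (tool and build as in the submitters' processing notes), removed doublets with Scrublet and deposited, for cells of an annotated cell type, natural log values, ln(1 + UMIs per 10000 UMIs of the cell). From these deposited values whole UMI numbers were recovered, so that levels, shares and intervals rest on counted molecules. No doublet caller was run again.

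Cells were grouped by the deposited cell type and library. A level is the mean over cells of UMIs per 10000, with a 95% gamma interval, ratios have delta-method intervals, and shares of mt- UMIs have exact binomial (Clopper-Pearson) ones. The intervals of levels and ratios were tested on simulated counts in which all cells of a library had the same rate of a gene. That test therefore does not cover the spread between real cells. Counts of genes past 1.5-fold used genes with a level of at least 0.1 in a library. With 1 library per genotype no p-value was computed. The members, gene lists and tests were chosen with earlier results of these data known. Beyond all mt- genes, nuclear members were named by fixed rules. These were the 3 with the lowest and the 3 with the highest ratio in epithelial cells, macrophages and neutrophils among those with a level of at least 0.5, those at least 2 times the next cell type in both libraries, the complex IV and *Atp5g* paralogs, the 4 at each end by mt- share at the same limit on level, and the most abundant of each complex. Of each other list the 2 most abundant genes in epithelial cells were named. Alternatives were summed UMIs, other denominators, limits on mt- share, thinning to 1000 UMIs (which left out 840 and 181 cells), another filter and fold, and other bins. Thinning keeps the expected share of a gene in a cell, so it is no control for depth. Python 3.11.15, numpy 2.4.6, scipy 1.17.1, pandas 2.3.3 and matplotlib 3.10.9 were used.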

Additional observations from a re-analysis of the deposited data

Results flagged for a closer look

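Members whose ratio between the libraries had counting intervals on opposite sides of 0 in a pair of cell types are listed here, if their level was at least 0.5 UMIs per 10000 in a library of each type. For each member the pair with the highest and the lowest ratio is given first. The difference was not tested, since each cell type came from the same 2 libraries. The ratios are not set against the median of all genes, which differed between cell types. In epithelial cells it was -0.22, with 87.75% of genes below 0. Of the listed members below 0 there, *Sdha*, *Atp5f1* and *mt-Nd6* lay above that median, and *Ndufa4* and *Cox7a1* below it.

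*Ndufa4* had a log2 ratio of 0.27 in B cells and -0.44 in epithelial cells. *Ndufa1*, of complex I, had 0.31 in B cells (2093 and 7210 UMIs) and -0.77 in neutrophils. *Sdha* had 0.20 in macrophages and -0.19 in epithelial cells, and *Atp5a1*, the catalytic-core subunit alpha of complex V, had 0.26 in dendritic cells (745 and 1924 UMIs) and -0.25 in neutrophils.

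For the others the highest ratio rests on few molecules. *Ndufs5* had 2.34 (0.799 to 3.89) in basophils from 5 and 35 UMIs and -0.61 in neutrophils. *Atp5f1* had 0.73 (0.040 to 1.41) in basophils from 28 and 92 UMIs and -0.07 in epithelial cells. It was also above 0 on more molecules, in macrophages (0.22, 0.138 to 0.306; 3735 and 6744 UMIs) and mast cells (0.34, 0.168 to 0.502; 689 and 2337 UMIs). *Ndufb6* had 1.10 (0.180 to 2.01) in endothelial cells from 35 and 49 UMIs and -0.18 in T cells. *mt-Nd6* had 0.55 in endothelial cells from 80 and 121 UMIs and -1.30 in fibroblasts from 43 and 71 UMIs. In macrophages it had 0.15 (0.016 to 0.284; 1501 and 2529 UMIs) against -0.15 (-0.183 to -0.117) in epithelial cells. Below the limit on level, *Ndufs1* had 0.13 in epithelial cells and -0.49 (-0.958 to -0.017) in mast cells, and *Cox7a1* had 3.58 (0.796 to 6.37) in erythroid cells from 2 and 5 UMIs and -0.63 in epithelial cells.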

How the results depend on the processing

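Summed over the members, the mt- level was higher and the nuclear level lower in the library labelled Mir34a_Mye_KO in 11 of 11 cell types under each alternative run on them, with intervals across 0 for the nuclear level of erythroid cells under some. Gene by gene this did not hold. Without cells of 25% or more, 4 of 12 mt- members were lower in epithelial cells and in fibroblasts, and the median nuclear member of erythroid cells was at 0.05 (41 of 79 above 0), or at 0.01 (40 of 80) with mt- genes left out of the total. The sizes moved, as follows. For the mt- log2 ratio in epithelial cells (0.58), macrophages (0.63) and neutrophils (0.63), summed UMIs gave 1.10, 0.64 and 0.64, a total without mt- genes 0.82, 0.70 and 0.69, and cells under 25% mt- share 0.12, 0.51 and 0.48. A total without immunoglobulin and rRNA-like genes, *Cdk8* and *Camk1d* gave 0.65, 0.71 and 0.67. Cells with at least 500 mRNAs and under 10% gave 0.18 in epithelial cells and 0.57 in neutrophils, and thinning 0.53 in epithelial cells and 0.62 in macrophages. For the nuclear ratio in the same types (-0.44, -0.30 and -0.46), summed UMIs gave -0.69, -0.45 and -0.55, and a total without mt- genes -0.31, -0.27 and -0.43. The total without immunoglobulin and rRNA-like genes, *Cdk8* and *Camk1d* gave -0.34, -0.22 and -0.40. In epithelial cells, those under 25% gave -0.30, the stricter limit -0.34 and thinning -0.43, and in macrophages the stricter limit gave -0.28.

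The lead of epithelial cells in mt- level (2.22 and 2.09 times the next type) became 1.88 and 1.34 with summed UMIs, 2.83 and 2.69 without mt- genes in the total, 1.60 and 1.35 in cells under 25%, 1.22 and 0.99 under the stricter limit, the last with an interval across 1 (0.970 to 1.006), and 2.31 when thinned in the library labelled Mir34a_F/F. The ratio of top to bottom bin (-0.37 and -0.32) became -1.09 and -1.09 against all UMIs, -0.61 and -0.34 summed, -0.48 and -0.33 thinned and -0.39 and -0.34 with 5 equal bins, and -0.40 for cells under 1% immunoglobulin in the library labelled Mir34a_Mye_KO. Nuclear members lower by the fold in epithelial cells (10) numbered 0 at 2-fold, 48 summed, 0 without mt- genes in the total and 1 in cells under 25%. The shares of all genes lower were 0.42%, 14.4%, 2.02% and 1.72% in this order. The mt- members higher there (5) numbered 0, 11, 9 and 1, with 0.34%, 1.18%, 2.22% and 2.875% of all genes higher. In macrophages the nuclear count (1) was 2 without a filter on level, 0 at 2-fold, 14 summed, 0 without mt- genes in the total and 0 under 25%. The shares of all genes lower were 21.15%, 0.71%, 6.16%, 3.30% and 3.60% in this order. The mt- count (7) was 1 at 2-fold, with 0.39% of all genes higher. In neutrophils the nuclear count (16) was 1 at 2-fold (2.06% of all genes) and 36 summed (17.7%). The mt- count (7) was 1 at 2-fold (0.75% of all genes) and 4 under 25% (6.10%). The cause of these shifts was not tested. The limits on mt- composition (cells under 25%, under 10%, mean over cells) were chosen after seeing the data. No paired analysis was possible because each genotype has 1 library, and for the same reason no replicate could be left out. Counting error was small for summed members, but the intervals hold neither the spread between the cells of a type nor that between mice. The precision is further limited by the number of libraries.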
